A study of Mus musculus with 6 samples.

Results

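Transcripts of 45 cell cycle genes were examined among the 17382 genes of the deposited table. They were taken by symbol from a fixed list, with no cut on their values, and all 45 were found. The list was chosen with earlier results of these data known. Of these, 18 act in the G1/S transition and DNA replication (replication genes) and 27 act in G2 and mitosis (mitotic genes), and the 2 sets are described apart. The samples were 6 cultures of bone marrow from C57BL/6 mice aged 2 months, grown for 3 days with 40 ng/mL of M-CSF, the growth factor that drives marrow progenitors to divide and become macrophages. The 3 knockout libraries (CKO 1 to 3) came from mice with both PD-L1 alleles floxed and Cre expressed from the lysozyme locus. The 3 wild type libraries (WT 1 to 3) came from littermates with the same floxed alleles and no Cre, so every culture carried floxed PD-L1. Lysozyme-Cre acts in granulocytes, monocytes and macrophages and less fully in early progenitors, so a culture can hold cells that kept the gene. The design text calls the libraries biological triplicates; whether animals were pooled is not given in the labels.

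Cells that prepare to divide first make the machinery that copies DNA and later the machinery that separates chromosomes. In G1, cyclin D with Cdk4 or Cdk6 and then cyclin E with Cdk2 release the E2F transcription factors, which switch on replication genes. From S phase into mitosis the MuvB complex with B-Myb (Mybl2) and Foxm1 switches on the mitotic genes, through a promoter element called the CHR that often lies close to CCAAT boxes bound by NF-Y. Myeloid progenitors stimulated by M-CSF divide and then leave the cycle as they mature, so a young culture is a mixture of dividing and resting cells. In bulk RNA, fewer dividing cells and less of a transcript per cell cannot be told apart.

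Promoter sequences are shown because they are the feature by which the 2 sets are classically told apart and which the choice of genes did not use. RefSeq (assembly GRCm38.p6, the same build as the mm10 of the deposited table) gave the 300 bases from 250 before to 50 after the start for 36 of the 45 genes, of which 15 are replication and 21 mitotic genes. Both strands were searched for CHR letters (TTTGAA or TTCGAA), for the CCAAT box (CCAAT) and for 4 E2F letters (TTTCCCGC, TTTCGCGC, TTTGCCGC or TTTGGCGC). Stretches of 6 promoters are printed 5′ to 3′ on the strand of the gene, with every match in capitals. A match on the other strand reads as its reverse complement, for example ATTGG for a CCAAT box. Matches that touch or overlap form 1 longer run of capitals.
Mcm5, chr8:75109349-75109479, plus strand: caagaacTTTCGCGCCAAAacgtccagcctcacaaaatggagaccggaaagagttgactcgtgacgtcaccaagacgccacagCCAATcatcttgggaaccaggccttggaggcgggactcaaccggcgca
Mcm6, chr1:128359706-128359825, minus strand: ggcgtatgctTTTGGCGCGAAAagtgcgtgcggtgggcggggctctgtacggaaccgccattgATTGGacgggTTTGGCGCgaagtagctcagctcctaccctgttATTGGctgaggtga
Cdk1, chr10:69352942-69353052, minus strand: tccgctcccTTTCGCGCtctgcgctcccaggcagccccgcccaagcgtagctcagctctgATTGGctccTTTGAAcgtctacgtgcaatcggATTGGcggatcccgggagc
Top2a, chr11:99024190-99024389, minus strand: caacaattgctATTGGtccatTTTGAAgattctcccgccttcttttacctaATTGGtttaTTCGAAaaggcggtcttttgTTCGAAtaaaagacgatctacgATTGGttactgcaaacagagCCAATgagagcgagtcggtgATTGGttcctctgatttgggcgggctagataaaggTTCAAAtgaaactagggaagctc
Mki67, chr7:135716464-135716574, minus strand: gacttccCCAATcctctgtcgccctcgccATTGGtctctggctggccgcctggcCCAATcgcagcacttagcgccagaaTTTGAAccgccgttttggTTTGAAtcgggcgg
Cdc20, chr4:118437353-118437403, minus strand: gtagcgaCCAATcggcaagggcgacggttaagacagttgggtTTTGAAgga

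CHR letters stood in 16 of the 21 mitotic promoters (76.2%) and in 3 of the 15 replication promoters (20.0%). Of all 27025 promoters of the same length, 19.4% held them, and of the 12425 promoters of genes that the deposited data list, 14.3% did. The E2F letters stood in 5 of the 15 replication promoters (33.3%), those of Cdc6, Mcm3, Mcm5, Mcm6 and Mcm7, and in 1 of the 21 mitotic promoters (4.76%), that of Cdk1. Their share was 2.33% over all promoters and 3.64% over those of genes in the table. A CCAAT box stood in 18 of 21 mitotic promoters (85.7%), in 10 of 15 replication promoters (66.7%), in 37.9% of all promoters and in 38.1% of those of genes in the table. The Top2a promoter held 4 CHR matches and 6 CCAAT matches in its 300 bases, and the Cdk1 promoter held all 3 kinds of motif. These are matches of letters and no binding was measured. RefSeq starts lay 19 bases from the deposited 5′ end of the gene for Mcm5 and 49 bases for Mcm6, and at the same base for the other printed genes. Among the promoters counted but not printed, the distance was 466 bases for E2f1, 262 for Cdc6, 99 for Mcm3 and at most 21 for the rest. The windows of Cdc6 and Mcm3, both with E2F letters, were thus not centred on the deposited starts.

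Levels were compared as TPM, a read count per gene length scaled to the same total in every library, so that genes and libraries are on 1 scale. The libraries held from 52355655 (WT 1) to 77318097 (WT 2) reads counted in genes, recovered from the TPM values, and each replication gene had 1055 to 34141 reads per library and each mitotic gene 858 to 98648. Counting error was therefore small beside the spread between libraries. Cd274, the gene of PD-L1 (chr19:29367438-29388094), did not mark the knockout libraries: its levels were 19.3, 19.2 and 29.2 TPM in CKO 1 to 3 and 17.9, 15.5 and 23.7 TPM in WT 1 to 3, a log2 difference of 0.24 ± 0.22 (SE, n = 3 per group). A value for the whole gene can hold reads of exons outside the floxed part, so it does not settle whether the allele was recombined, and each direction below is between libraries as labelled. Lyz2, the locus that carries Cre and a macrophage and neutrophil marker, stood at 19101, 19354 and 13232 TPM in CKO 1 to 3 and at 26707, 27493 and 40358 TPM in WT 1 to 3.

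All 45 cell cycle genes were expressed in every culture, and none of them differed between the genotypes beyond the spread of the libraries. In 41 of the 45 the knockout mean of log2 values was the lower, by at most 0.21 (Mcm5). Limma on log2(TPM + 0.1) called 0 of the 45, 0 of them had an unadjusted p under 0.05, and 0 had groups that did not overlap. Over all 13722 genes tested, limma called 0%, 2.18% had an unadjusted p under 0.05, and in 5.12% the 3 knockout libraries lay all above or all below the 3 wild type libraries. A negative difference was found for 48.9% of all genes tested. The cell cycle genes share the libraries and move together, so their signs are not separate observations. The smallest unadjusted p of a cell cycle gene was 0.210, for Kif20a, a kinesin of the central spindle, with an adjusted p of 1.0 in limma. On the recovered reads limma-voom called 0 genes as well, and 308 genes reached an unadjusted p under 0.05, against 299 in limma. The authors' deposited table called 0 of the 45 genes at an adjusted p under 0.05, against 0.265% of all its genes, and the log2 fold changes of the 45 ran from -0.25 to 0.03. The labels do not tie each library to 1 animal, so p-values measure the spread between these libraries, which may in part be technical.

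**Figure D1:**
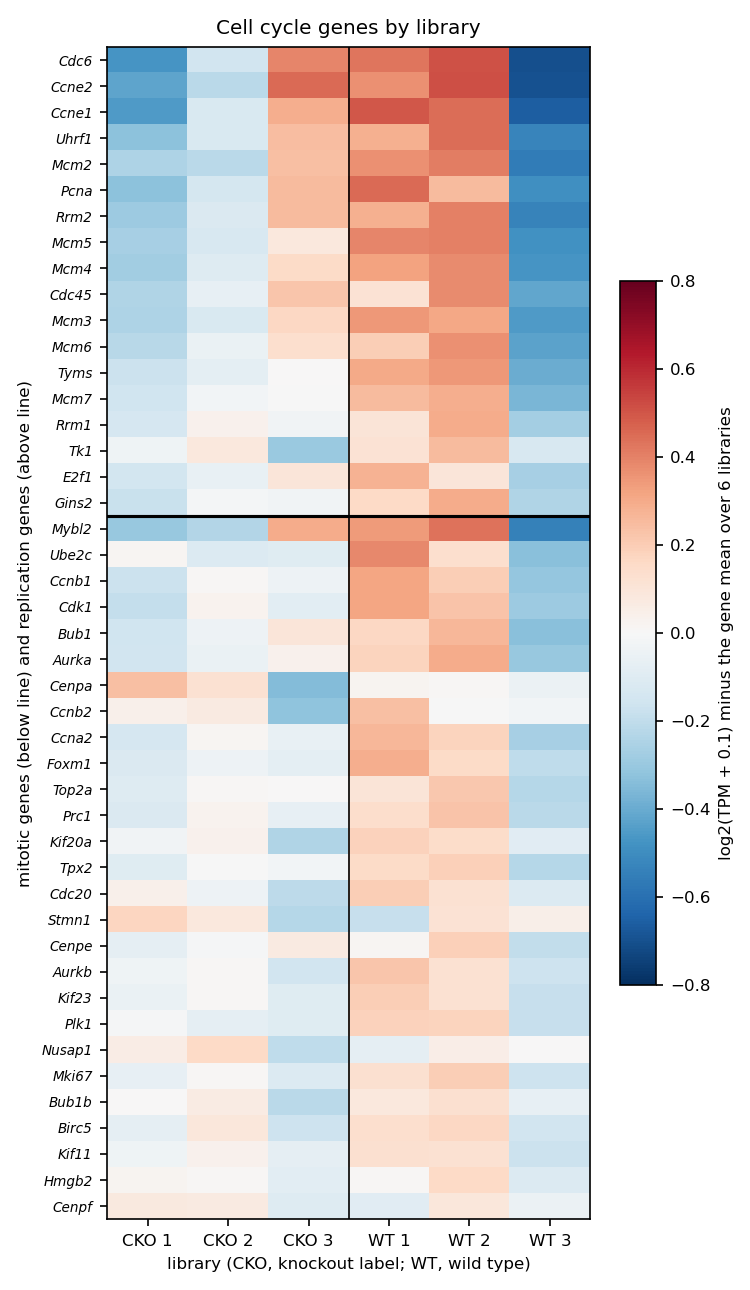
Heat map of the 45 cell cycle genes (rows; replication genes above the line, mitotic genes below, each ordered by the ratio of its highest to its lowest library) in the 3 knockout (CKO) and 3 wild type (WT) libraries (columns). Colour is log2(TPM + 0.1) minus the mean of the gene over the 6 libraries; WT 3 was the lowest library for 17 of 18 replication genes, and CKO 3 was above CKO 1 and CKO 2 in 15 of 18 replication genes but in 4 of 27 mitotic genes.

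The replication genes were lower on average in the knockout libraries in 18 of 18 cases, and none of the 18 passed the test. Their log2 differences, knockout minus wild type, ran from -0.21 to -0.05 with a median of -0.14, where the median of all genes tested was 0.00. The median standard error was 0.24, larger than any of these differences, and the 95% intervals of the 18 genes lay between -1.05 and 0.75. At the widest, the intervals allow knockout levels from 0.484 to 1.69 times the wild type level. The size of the median difference rested on single libraries of both genotypes: it was -0.40 without WT 3, -0.25 without CKO 3, -0.03 without CKO 1, -0.01 without WT 1 and 0.00 without WT 2, where 9 of 18 genes were negative.

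Pcna and Mcm6 were the most abundant of the set. Pcna, the ring that holds DNA polymerase on its template (chr2:132249286-132253180), stood at 424, 481 and 633 TPM in CKO 1 to 3 and at 728, 632 and 378 TPM in WT 1 to 3. Both the highest and the lowest library were wild type, and the log2 difference was -0.14 ± 0.27 (SE, n = 3 per group). Mcm2 to Mcm7 encode the 6 subunits of the hexameric helicase that opens the replication fork. Mcm6 stood at 229, 257 and 293 TPM in the knockout libraries and at 305, 344 and 199 TPM in the wild type libraries. Mcm3 stood at 136, 149 and 182 TPM against 206, 201 and 119 TPM. Mcm5, whose promoter is printed above, stood at 125, 137 and 159 TPM against 197, 199 and 107 TPM, and its log2 difference of -0.21 ± 0.25 (SE, 95% interval -0.81 to 0.39) was the most negative of the 45. Of the other subunits, Mcm2 ran from 63.8 to 125 TPM, Mcm4 from 80.8 to 146 TPM and Mcm7 from 99.0 to 156 TPM. In all 6 subunits WT 3 was the lowest library and CKO 3 the highest of the knockout libraries, and their highest library was 1.58 to 1.96 times their lowest. Per gene length the subunits did not stand at 1 level, since the mean over 6 libraries ran from 96.9 to 271 TPM, a ratio of 2.80.

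The genes that supply deoxynucleotides differed in how far they varied. Rrm1, the large subunit of ribonucleotide reductase, stood at 204, 229 and 219 TPM in CKO 1 to 3 and at 240, 275 and 185 TPM in WT 1 to 3. Its small subunit Rrm2, whose supply rises in S phase, had a wider spread, from 97.2 TPM in WT 3 to 187 TPM in WT 2, 1.92 times against 1.49 times for Rrm1. Tyms, thymidylate synthase, stood at 24.9, 26.6 and 28.1 TPM against 34.7, 35.7 and 21.3 TPM. The 3 knockout values lay between the lowest and the other wild type libraries, and the log2 difference was -0.17 ± 0.20 (SE). Tk1, thymidine kinase of the salvage route, stood at 109, 118 and 91.1 TPM against 121, 133 and 102 TPM, and was the only replication gene with its lowest value in CKO 3 and not in WT 3. Its log2 difference was -0.16 ± 0.14 (SE, unadjusted p = 0.279 in limma), the smallest p of the 18.

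Genes that license, fire and start replication included the most variable ones. Cdc6, which loads the helicase onto origins, stood at 13.9, 17.4 and 25.3 TPM in CKO 1 to 3 and at 26.1, 27.6 and 11.8 TPM in WT 1 to 3. Its highest library was 2.34 times its lowest, the widest ratio of the 45, and its log2 difference was -0.16 ± 0.37 (SE). The 2 E-type cyclins, which drive entry into S phase, were the other members with a ratio above 2, at 2.24 for Ccne1 (18.8 to 42.1 TPM) and 2.32 for Ccne2 (25.9 to 60.0 TPM). Gins2, a subunit of the GINS complex of the active helicase, had a narrow range, with 78.4, 87.9 and 87.2 TPM against 99.2, 109 and 75.1 TPM. Cdc45, which completes that helicase, ran from 31.6 to 54.9 TPM with the least negative difference of the set, -0.05 ± 0.22 (SE). E2f1, the transcription factor of the G1/S genes and itself one of its targets, ran from 36.0 to 52.5 TPM, and Uhrf1, which guides maintenance methylation at the fork, from 74.4 to 146 TPM.

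The mitotic genes stood at like levels and varied less between libraries. Knockout means of log2 values were lower for 23 of 27 genes (25 of 27 under quantile normalization), and none of the 27 passed the test. Their log2 differences ran from -0.16 to 0.03 with a median of -0.10 and a median standard error of 0.12, and their 95% intervals lay between -0.87 and 0.55. Leaving out WT 3 moved the median to -0.22, leaving out WT 1 or WT 2 to -0.04. The 4 genes with a positive difference were Cenpa (0.01), Nusap1 (0.01), Stmn1 (0.02) and Cenpf (0.03).

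**Figure D2:**
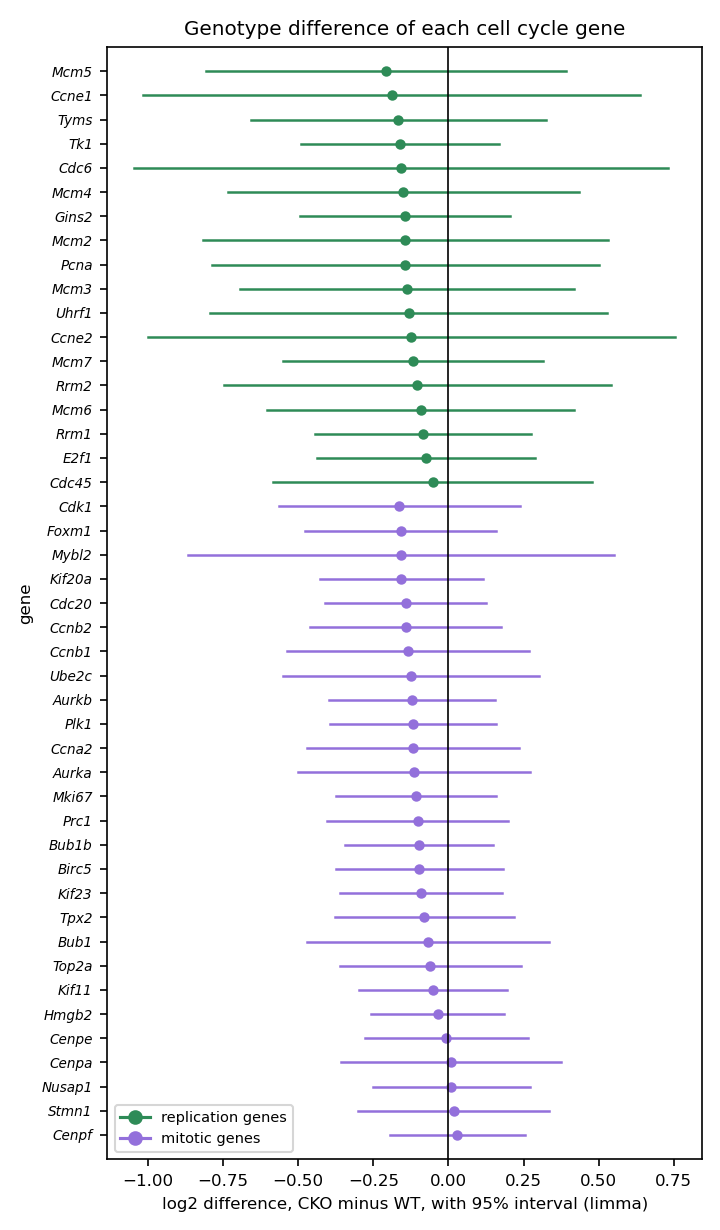
Log2 difference, knockout minus wild type, on the log2(TPM + 0.1) scale for each of the 45 cell cycle genes (points) with its 95% interval from limma (lines), 3 libraries per group; replication genes green, mitotic genes purple. Every interval includes 0, and the intervals are widest for Cdc6, the E-type cyclins Ccne1 and Ccne2, and Mybl2.

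Top2a and Mki67 led the mitotic genes in abundance. Top2a, topoisomerase that disentangles sister chromatids (chr11:98992947-99024189), stood at 286, 310 and 309 TPM in CKO 1 to 3 and at 331, 357 and 263 TPM in WT 1 to 3, a log2 difference of -0.06 ± 0.13 (SE). Mki67, the antigen Ki-67 that coats mitotic chromosomes and is the standard marker of cycling cells (chr7:135689788-135716379), stood at 262, 277 and 254 TPM against 299, 315 and 245 TPM. Its log2 difference was -0.11 ± 0.11 (SE), with a 95% interval of -0.37 to 0.16. For both genes the knockout libraries lay within the range of the wild type libraries, whose lowest was WT 3. Hmgb2, a chromatin protein, ran from 50.1 to 60.5 TPM.

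Among the mitotic cyclins and their kinase, Ccna2, the cyclin of S phase and G2, stood at 192, 213 and 202 TPM in the knockout and at 253, 238 and 175 TPM in the wild type libraries. Cdk1, the kinase of mitotic entry, ran from 103 TPM in WT 3 to 156 TPM in WT 1, and its partner Ccnb1 from 47.0 to 72.6 TPM in the same 2 libraries. Ccnb2, the other B-type cyclin, had another order, with 138, 141 and 107 TPM in CKO 1 to 3 against 158, 134 and 132 TPM in WT 1 to 3. CKO 3 was its lowest library while CKO 1 and CKO 2 lay between the wild type values, and the log2 difference was -0.14 ± 0.13 (SE).

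Of the transcription factors of the G2/M programme, Foxm1 stood at 54.7, 57.7 and 56.1 TPM in CKO 1 to 3 and at 72.5, 66.1 and 51.4 TPM in WT 1 to 3, a log2 difference of -0.16 ± 0.13 (SE). Mybl2, the B-Myb partner of MuvB and the least abundant of the 45, stood at 9.54, 10.0 and 14.5 TPM against 15.0, 16.0 and 8.10 TPM. Its library order was that of the mean of the replication genes, and its ratio of highest to lowest, 1.98, was the widest of the 27. In general, B-Myb is made from an E2F target gene in S phase, ahead of the mitotic genes it acts on. The searched promoter of Mybl2 held 0 matches of the E2F, CHR or CCAAT letters. A link between its regulation and its library order was not tested.

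Kinases, spindle and kinetochore genes had ratios of highest to lowest library of 1.14 to 1.52. The mitotic kinases Aurka (67.3 to 102 TPM), Aurkb (77.3 to 101 TPM), Plk1 (78.2 to 101 TPM) and Bub1 (55.0 to 83.5 TPM) were lowest in WT 3, whereas the checkpoint kinase Bub1b ran from 83.3 TPM in CKO 3 to 106 TPM in WT 2. Kif20a (chr18:34624624-34633277) stood at 78.2, 82.0 and 67.6 TPM in the knockout and at 90.7, 88.4 and 74.9 TPM in the wild type libraries, a log2 difference of -0.16 ± 0.11 (SE, 95% interval -0.43 to 0.11). Spindle motors and organisers Kif11, Kif23, Tpx2 and Prc1 had ratios of highest to lowest library of 1.24 to 1.36. Cenpf, a kinetochore protein, was the most even of the 45, with 33.4, 33.2 and 29.4 TPM against 29.7, 33.6 and 30.6 TPM, a ratio of 1.14 and a log2 difference of 0.03 ± 0.09 (SE). Cenpa, the histone H3 variant of centromeres, ran from 82.3 TPM in CKO 3 to 123 TPM in CKO 1, so both ends of its range were knockout libraries. Cenpe, the motor of the kinetochore, ran from 53.4 to 69.9 TPM and Birc5, survivin of the chromosomal passenger complex, from 65.9 to 82.8 TPM. The microtubule regulators Stmn1 (79.6 to 105 TPM) and Nusap1 (70.7 to 91.1 TPM) had both their lowest and their highest value in knockout libraries.

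The 2 genes of mitotic exit work with the anaphase-promoting complex. Ube2c, its ubiquitin-conjugating enzyme, stood at 160, 147 and 148 TPM in CKO 1 to 3 and at 207, 174 and 126 TPM in WT 1 to 3, with a ratio of 1.65. Cdc20, its activator, stood at 75.8, 71.7 and 63.7 TPM against 84.7, 80.3 and 68.4 TPM, and its log2 difference was -0.14 ± 0.11 (SE). In neither gene did the groups separate. Per-library values outside the 4 most abundant, the 4 of smallest p and the 2 least abundant genes of each set were added after the values were seen.

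The spread between cultures was wider for the replication genes than for the mitotic genes, as a description with no test. The highest library was a median of 1.77 times the lowest over the 18 replication genes (1.45 to 2.34) and 1.34 times over the 27 mitotic genes (1.14 to 1.98). Among the 8055 genes whose mean lay within the members' range of 12.2 to 546 TPM, the median ratio was 1.28 with quartiles of 1.18 and 1.45. A ratio above 1.5 was found for 14 of 18 replication and 6 of 27 mitotic genes.

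The mean log2 level of the replication genes was 6.26, 6.42 and 6.66 in CKO 1 to 3 and 6.81, 6.87 and 6.06 in WT 1 to 3. For the mitotic genes it was 6.42, 6.48 and 6.37 against 6.62, 6.64 and 6.29. WT 1 and WT 2 were the 2 highest libraries and WT 3 the lowest in both sets, so the wild type libraries spanned the knockout ones. As group means the replication genes stood at 6.45 ± 0.20 in the knockout and 6.58 ± 0.45 in the wild type libraries, and the mitotic genes at 6.43 ± 0.05 and 6.51 ± 0.20 (SD, n = 3 each). Together the 45 genes made up 0.472, 0.507 and 0.522% of all TPM in CKO 1 to 3 and 0.605, 0.610 and 0.424% in WT 1 to 3.

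**Figure D3:**
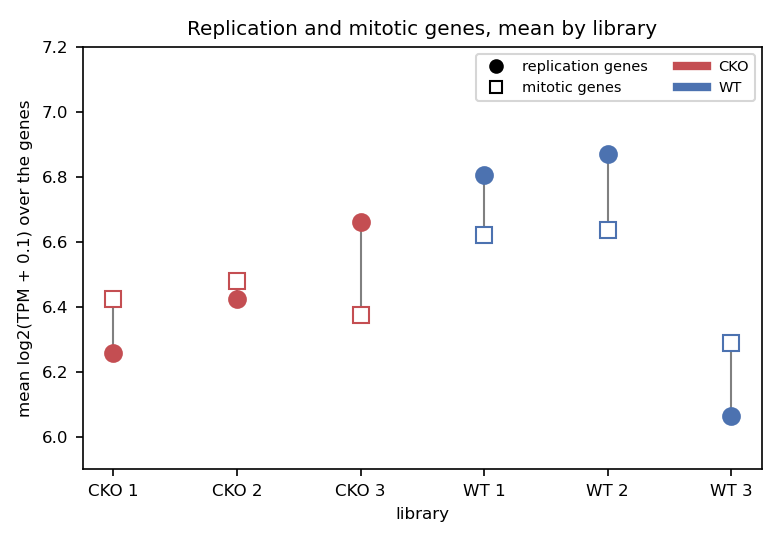
Mean log2(TPM + 0.1) of the 18 replication genes (filled circles) and of the 27 mitotic genes (open squares) in each library, knockout (CKO) red and wild type (WT) blue. Replication genes run from 6.06 in WT 3 to 6.87 in WT 2 and mitotic genes from 6.29 to 6.64 in the same libraries; in CKO 3 the replication genes are above, and the mitotic genes below, those of the other knockout libraries.

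The replication mean lay above the mitotic mean in CKO 3, WT 1 and WT 2, and by most in CKO 3. The difference on the log2 scale was 0.29 in CKO 3, 0.19 in WT 1 and 0.23 in WT 2. It was -0.17 in CKO 1, -0.05 in CKO 2 and -0.22 in WT 3. CKO 3 lay above both other knockout libraries in 15 of 18 replication genes and in 4 of 27 mitotic genes, and below both in 1 and 15. It was the lowest of all 6 libraries for 9 mitotic genes (Ccnb2, Bub1b, Cenpa, Cenpf, Kif20a, Birc5, Cdc20, Stmn1 and Nusap1) and for Tk1. WT 3 was the lowest for the other 18 mitotic and 17 replication genes. No test bears on a single library, and these orders are a description only.

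The replication genes divided the libraries as the main axis of variation of the whole data did. In the first principal component of the tested genes other than members, which held 44.3% of the variance, CKO 3, WT 1 and WT 2 lay on 1 side and CKO 1, CKO 2 and WT 3 on the other, so that it did not divide the genotypes. These sides are read from the values and are no groups of the study. In 15 of 18 replication genes (83.3%) each of CKO 3, WT 1 and WT 2 was above each of the other libraries, the exceptions being Gins2, Rrm1 and Tk1. So were 4 of 27 mitotic genes (14.8%), Bub1, Aurka, Cenpe and Mybl2, and 24.6% of all genes tested. The opposite division was found for 0 of 45 members and for 22.7% of all genes. Within each side 1 genotype had a single library, and genes are not replicates of it. WT 3 was the lowest of all libraries for 17 of 18 replication and 18 of 27 mitotic genes, which fixes a positive sign for these. Between CKO 1 and CKO 2 and WT 3 the median log2 difference was 0.28 over replication genes and 0.16 over mitotic genes. The sign was positive for 18 of 18 and 27 of 27. Over all genes tested that median was 0.03, with a positive sign for 61.0%. Between CKO 3 and WT 1 and WT 2 it was -0.16 and -0.27, with a positive sign for 1 of 18 (Ccne2, 0.01) and 0 of 27, against a median of -0.02 and a positive sign for 45.2% of all genes tested. WT 1 was the highest of all libraries for 4 replication and 12 mitotic genes, and WT 2 for 14 and 12. This leans the signs between CKO 3 and WT 1 and WT 2 to the negative without fixing them. The signs within each side thus follow largely from the order of the libraries and do not bear on genotype. Each of these medians rests on a single library in 1 genotype and has no test.

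Other genes of the pathway, from lists of the same functions, had like values. They were measured in the same libraries and move together with the members, so their signs are not separate evidence of a genotype difference. Of 39 further replication genes 34 had a lower knockout mean, with a median log2 difference of -0.08. Of 60 further mitosis genes 56 did, with a median of -0.08, against 48.9% of all genes tested. Limma called none of either list, and none had an unadjusted p under 0.05. In 32 of the 39 replication genes (82.1%) CKO 3, WT 1 and WT 2 were each above the other libraries. So they were in 20 of the 60 mitosis genes (33.3%) and in 24.6% of all genes tested. Gmnn, geminin, which blocks a second licensing of origins, stood at 149, 170 and 191 TPM in CKO 1 to 3 and at 195, 236 and 133 TPM in WT 1 to 3. Dnmt1, the maintenance DNA methyltransferase, stood at 127, 133 and 150 TPM against 166, 166 and 115 TPM, and Ung, the uracil glycosylase that clears uracil from new DNA, at 7.72, 8.40 and 10.5 TPM against 13.7, 12.8 and 6.58 TPM. Incenp, scaffold of the chromosomal passenger complex, was far more even, with 188, 191 and 188 TPM against 207, 212 and 176 TPM. Espl1, the separase that cuts cohesin, stood at 22.0, 21.4 and 21.1 TPM against 27.0, 25.9 and 20.5 TPM.

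The 11 genes that drive G1 had lower knockout means in 11 of 11 cases, with a median log2 difference of -0.12, and none passed the test. In 10 of them (90.9%) CKO 3, WT 1 and WT 2 were each above the other libraries, against 24.6% of all genes tested. These genes too move with the replication genes, and their signs are not separate evidence. Ccnd1, the cyclin D that M-CSF induces in macrophage precursors, stood at 118, 131 and 427 TPM in CKO 1 to 3 and at 333, 373 and 83.8 TPM in WT 1 to 3. CKO 3 was its highest library and WT 3 its lowest, and the log2 difference was -0.22 ± 0.71 (SE). Cdk4, its kinase, varied less and was highest in WT 1, with 353, 354 and 392 TPM against 415, 405 and 338 TPM. Cdc25a, the phosphatase that activates Cdk2, stood at 19.9, 21.6 and 29.6 TPM against 31.4, 32.6 and 17.4 TPM.

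The 24 inhibitors and repressors of the cycle did not move as 1 set. The knockout mean was lower for 14 and higher for 10, with a median log2 difference of -0.02, and none passed the test. CKO 3, WT 1 and WT 2 were each above the other libraries for 10 of the 24. They were each below the other libraries for 6 (Cdkn1b, Rb1, Rbl2, Btg1, Btg2 and Tob1). Over all genes tested the shares were 24.6% above and 22.7% below, so the 6 stood near the share of all genes. Cdkn1a, p21, stood at 173, 165 and 233 TPM in CKO 1 to 3 and at 214, 229 and 144 TPM in WT 1 to 3, with the same division of libraries as the replication genes but with CKO 3 highest. Btg1, an antiproliferative gene, had the reverse, with 76.7, 62.3 and 53.5 TPM against 40.0, 39.2 and 66.3 TPM. Cdkn1c, p57, had the largest log2 difference of the list, 0.88 ± 0.46 (SE, unadjusted p = 0.0992 and adjusted p = 1.0 in limma), with 23.1, 11.4 and 41.1 TPM against 14.8, 8.84 and 13.2 TPM, so CKO 2 lay within the wild type range. In 2 of the 24 the groups did not overlap, both lower in the knockout libraries. Over all genes tested, 5.12% had groups apart in either direction. Fzr1, the Cdh1 activator of the anaphase-promoting complex in G1, stood at 54.8, 53.2 and 47.9 TPM against 61.3, 56.9 and 55.1 TPM. Cdkn2a stood at 0.297, 0.321 and 0.326 TPM against 0.665, 0.340 and 0.461 TPM, which is 9 to 16 reads per library.

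**Figure D4:**
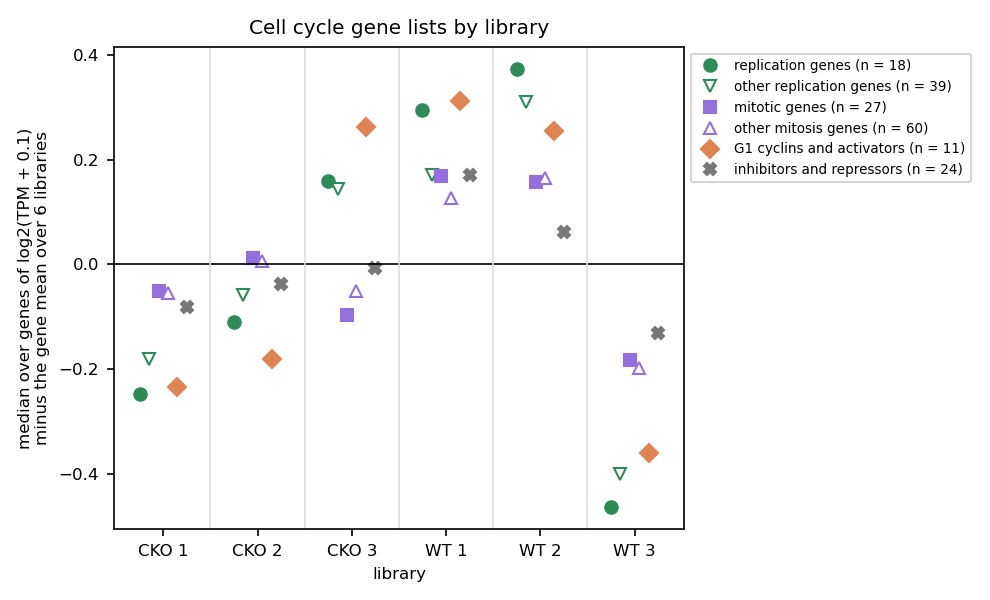
Median over the genes of each list of log2(TPM + 0.1) minus the gene's mean over the 6 libraries, for the replication genes, the mitotic genes and 4 other cell cycle lists (n in the key), in the knockout (CKO) and wild type (WT) libraries. Replication genes run from -0.46 in WT 3 to 0.37 in WT 2 and are at 0.16 in CKO 3, where the mitotic genes are at -0.10; the G1 cyclins and activators are at 0.26 in CKO 3 and the inhibitors at -0.01.

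Markers of the cells that a marrow culture can hold divided the libraries along these sides in some lists and not in others. The 14 macrophage and monocyte markers, all found, summed to 21404 to 29458 TPM in the knockout and 35695 to 50890 TPM in the wild type libraries, of which Lyz2 was the largest part. The other 13 summed to 10184, 10104 and 8172 TPM in CKO 1 to 3 and to 8988, 8251 and 10532 TPM in WT 1 to 3, so without Lyz2 the groups overlapped. Of the 14, 10 had a higher knockout mean and 4, Lyz2 among them, a lower one, with a median log2 difference of 0.04. The sum of the 14 was lowest in CKO 3 and highest in WT 3. Of the 14, 7 were each lower in CKO 3, WT 1 and WT 2 than in every other library. This division was found for 22.7% of all genes tested, and the counts of the next 2 lists stand beside the same share. The 8 neutrophil markers summed to 6911 to 8056 TPM against 5776 to 8436 TPM, and 4 of the 8 had that same division. The 10 markers of early myeloid progenitors, led by Mpo, summed to 235 to 302 TPM against 223 to 328 TPM, and none of them had it. Of other lineages, 11 B cell precursor markers summed to 54.5 to 89.4 TPM against 86.5 to 112 TPM. Of these, 10 had a lower knockout mean and 1 a higher one, with a median log2 difference of -0.55 and groups apart in 2. Limma called none of the 11, and 3 had an unadjusted p under 0.05. Over all genes tested, groups were apart in 5.12%, in either direction, and 2.18% had an unadjusted p under 0.05. The counts of the lists that follow stand beside the same 2 shares. The 9 erythroid markers found summed to 42.3 to 74.7 TPM against 65.7 to 109 TPM. A lower knockout mean was found for 9 of 9, with a median log2 difference of -0.31 and groups apart in 2, and limma called none. Of the 9, 3 were higher in CKO 3, WT 1 and WT 2 than in every other library, and 1 was lower. These are 33.3% and 11.1%, against 24.6% and 22.7% of all genes tested. The 11 T and NK cell markers summed to little, but their sums did not overlap between the genotypes, at 9.46 to 14.0 TPM in the knockout and 6.17 to 8.25 TPM in the wild type libraries. Of the 9 tested, 8 had a higher knockout mean, with a median log2 difference of 1.66, and in 7 every knockout library was above every wild type library. Limma called none of the 9 (7 had an unadjusted p under 0.05, and the smallest adjusted p was 0.472), and Cd3e, Gzmb, Prf1 and Ncr1 were at 0 in at least 1 library. The 8 stromal markers did not overlap either, at 6.40 to 6.45 TPM against 7.43 to 9.93 TPM, with a lower knockout mean for 7 of 7 tested and groups apart in 2 of them; limma called none, and 1 had an unadjusted p under 0.05. The 5 megakaryocyte markers, led by Pf4, summed to 784 to 1141 TPM against 962 to 1056 TPM, with a lower knockout mean for 4. The part of cell composition in the levels of the cell cycle genes was not tested.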

How the data were processed

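RNA of 6 marrow cultures was sequenced from stranded total RNA libraries. Tools listed in the submitters' processing notes are TopHat2 2.0.12, Subread with featureCounts, edgeR, Picard 1.127 and FastQC 0.11.2, with build mm10. How reads were counted, and on which annotation, is not given in the sources used here, so reads of overlapping genes may not be separated. The authors deposited TPM per gene and library, a unit read from values that sum to the same total in each library. Per the file headers the table also holds the authors' log2 fold change, log2 CPM, a likelihood ratio score, and raw and adjusted p-values; a positive fold is higher in knockout libraries, from the values.

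Reads were recovered by fitting fractions to the ratios between libraries within a gene and multiplying by their common denominator. All of the 94034 values above 0 then lay within 0.01 of a whole read (100%). The fitting itself yields whole numbers, so this share is no check of the recovery. For 308 genes a common factor was set with the authors' log2 CPM, which gave the depth. Over the more abundant genes the recovered log2 CPM differed from that of the authors by a median of -0.0013. Limma 3.58.1 (R 4.3.3, trend, two-sided, Benjamini-Hochberg over all genes) was fitted to log2(TPM + 0.1) over the 13722 genes that reached 0.1 TPM in 3 or more libraries; genes were called at an adjusted p under 0.05. Fold changes are on that scale, and intervals cover 95%. TMM factors were computed from their published formula, as scaling only. The fit was tested on simulated data.

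Members and lists were chosen with earlier results of these data known. Genes given in every library were, per set, the 4 most abundant, the 4 with the smallest p, the 2 least abundant and any with groups that did not overlap; of the other lists, up to 4 by p and the 2 of highest mean. Alternatives changed the pseudocount, filter, scaling, test, replicate block, first component as covariate, and left out each library. Of the older symbols, Emr1 stood for Adgre1. Promoter letters were matched in RefSeq sequence of GRCm38.p6.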

Additional observations from a re-analysis of the deposited data

How the results depend on the processing

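No gene was called under any of the 15 alternatives, at 168 to 1012 genes with an unadjusted p under 0.05, and no alternative that kept all 6 libraries turned the sign of the 19 members named by the rule. Of their 285 alternative values 12 were of the opposite sign, all with 1 library left out. The log2 difference then ran from -0.55 to 0.059 for Cdc6, -0.40 to 0.0016 for Mcm3, -0.33 to 0.068 for Mcm6, -0.42 to 0.049 for Pcna, -0.24 to 0.043 for Rrm1, -0.19 to 0.032 for Top2a, -0.32 to 0.037 for Ube2c, -0.47 to 0.020 for Mybl2 and -0.0078 to 0.088 for Cenpf.

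Single libraries set the size of the differences. The median over replication genes was -0.40 without WT 3 and -0.25 without CKO 3, but -0.03 without CKO 1, -0.01 without WT 1 and 0.00 without WT 2, where 9 of 18 were negative. Over mitotic genes it ran from -0.22 without WT 3 to -0.04 without WT 2, where 17 of 27 were negative. Without WT 3, 23 of 45 members had an unadjusted p under 0.05 (1012 of all genes), and their smallest adjusted p was 0.537 in limma. With the first component as a covariate 17 of 18 replication genes were negative and their median was -0.07. Quantile normalization gave 43 of 45 negative and the other scalings 41.

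Replicate numbers gave no pairing: deviations of same-numbered libraries correlated at -0.24, -0.15 and -0.53 over 13722 genes. With the replicate block the medians stayed at -0.14 and -0.10, 0 genes were called and 232 had an unadjusted p under 0.05. With 3 libraries per group, precision is limited by their number and not by depth.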
